A study of Mus musculus with 8 samples.

Results

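Cluster 11 was the smallest of the 12 numbered clusters in the deposited cell table of this single-cell experiment. Its members were the cells that carried the number 11 and had at least 500 detected genes, which gave 539 of 101688 kept cells, or 0.530%. Of the 547 cells with that number, 8 were left out, with 408 to 489 detected genes, and the lowest kept member had 501. The cluster was known as a small unnamed cluster with Il17 transcripts. Its leading genes were markers of no cell type examined, and Il17f or Il17a was detected in 61 of the 539 cells (11.3%). It is therefore called by its number here.

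The cells were mouse splenic CD4+ T cells from female animals of 10 weeks, cultured for 3 days and captured with the Chromium 3' chemistry of 10x Genomics, in which a captured mRNA is counted once by its molecular identifier (UMI). The 4 groups of 2 libraries each were Gpr65_KO cells under Th22 conditions, Gpr65_WT cells under Th22 conditions, Gpr65_KO cells under Th17 conditions and Gpr65_WT cells under Th17 conditions. IL-1b and IL-23 were added to every culture, each at 20 ng/ml. Under Th22 conditions the medium also held 40 ng/ml of IL-6 and 400 nM of FICZ, which activates the aryl hydrocarbon receptor, and under Th17 conditions it held 25 ng/ml of IL-6 without FICZ. Neither the strain background of the animals nor the form of the Gpr65 deletion was stated in the sources used. The 2 libraries of a group are only numbered in the labels. No separate animals or cultures are named for them, so the p-values measure how far these libraries differ, and that spread may be technical.

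Gpr65 encodes a receptor of the G protein-coupled class that senses extracellular protons. Th17 and Th22 cells are helper T cells that are known for the cytokines IL-17A and IL-17F (Il17a and Il17f) and IL-22 (Il22), which act on epithelia and other barrier tissues. In cultures polarized towards these fates only some cells make a given cytokine at the moment of capture, and a cytokine gene that is transcribed gives many UMIs in a few cells.

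Cluster 11 was found in all 8 libraries, with 102 and 54 cells in the KO Th17 libraries, 66 and 49 in the KO Th22 libraries, 53 and 75 in the WT Th17 libraries, and 47 and 93 in the WT Th22 libraries (replicates 1 and 2). Its cells held between 144228 and 391158 UMIs per library, and levels are given as CPM, the UMIs of a gene per 1000000 of that sum. In a library of cluster 11 a single UMI stood for 2.56 to 6.93 CPM, so low genes were imprecise. The median cell held between 2445.5 and 4155 UMIs over the libraries in cluster 11, against 2353 to 4144 in the other cells of the same libraries, so the cluster did not stand apart by depth. The median mitochondrial share over its cells was 1.76%, and it was below that of the other cells in 7 of 8 libraries. Of the kept cells, 2404 carried a cell barcode sequence that also occurred in another library (1199 such barcodes), among them 12 cells of cluster 11. No doublet caller was run, and cells were not removed as doublets.

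Against all other cells of the same library, 25 genes led cluster 11. They were the genes of highest median log2 ratio (with 10 CPM added to both values) among those at 50 CPM or more in cluster 11 and higher there in at least 7 of 8 libraries, a condition that 31.5% of the 2117 genes at that level met. All 25 were higher in each of the 8 libraries, with median log2 ratios between 1.62 and 4.96. Together they made up 4348 to 6772 CPM of a library in cluster 11, against 307 to 523 CPM in other cells. Since the deposited clusters divide these same cells, the differences describe the cluster and were not tested. The genes lay on 15 chromosomes, with at most 3 on any of them, and 18 of the 25 (72.0%) are annotated as protein coding, against 83.6% of all annotated genes of the matrix.

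The leading genes of a given name included Olfr655, an odorant receptor gene on chr7:104595301-104601779 (mm10, minus strand), Gfod2, a gene with an oxidoreductase domain on chr8:105713854-105758664 (minus strand), and Yae1d1 on chr13:17981330-17993349 (minus strand). They are the first 3 named genes of the ranking, and the sequences around their starts are shown for that reason. Each runs from 250 bases before the start to 50 bases after it, 5′ to 3′ on the strand of the gene, from RefSeq on GRCm38.p6 (chr7:104597130-104597429, chr8:105758558-105758857 and chr13:17993302-17993601). The RefSeq start of Olfr655 lies inside the longer interval that the mm10 annotation gives the gene. Capitals mark matches, on either strand, to 5 motifs that were searched: the TATA box, as the letters TATAAA, the CCAAT box, by the letters of its name, the GC box, as GGGCGG, the cell cycle homology region, as TTTGAA, and the cyclic AMP response element, as TGACGTCA.
Olfr655: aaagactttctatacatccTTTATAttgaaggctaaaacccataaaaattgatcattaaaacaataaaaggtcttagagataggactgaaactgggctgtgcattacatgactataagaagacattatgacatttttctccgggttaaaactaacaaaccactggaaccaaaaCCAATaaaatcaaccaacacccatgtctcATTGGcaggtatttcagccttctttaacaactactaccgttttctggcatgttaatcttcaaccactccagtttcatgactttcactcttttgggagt
Gfod2: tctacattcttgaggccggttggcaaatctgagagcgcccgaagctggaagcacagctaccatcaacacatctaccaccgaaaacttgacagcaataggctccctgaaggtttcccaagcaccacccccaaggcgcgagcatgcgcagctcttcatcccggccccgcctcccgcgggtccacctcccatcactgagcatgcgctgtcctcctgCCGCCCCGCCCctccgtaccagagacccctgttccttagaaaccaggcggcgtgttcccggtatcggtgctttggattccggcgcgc
Yae1d1: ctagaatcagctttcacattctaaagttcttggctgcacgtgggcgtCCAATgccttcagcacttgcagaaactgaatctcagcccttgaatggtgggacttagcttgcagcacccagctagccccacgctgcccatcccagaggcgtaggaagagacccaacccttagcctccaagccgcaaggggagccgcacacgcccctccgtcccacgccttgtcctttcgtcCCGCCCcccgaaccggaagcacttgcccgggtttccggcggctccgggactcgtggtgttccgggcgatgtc

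The Olfr655 window held a TATA box on the opposite strand and a CCAAT box on each strand, with 35.7% G and C. The Gfod2 window held 2 GC boxes on the opposite strand that overlap by 1 base, with 61.7% G and C. The Yae1d1 window held a CCAAT box on the strand of the gene and a GC box on the opposite strand, with 61.3% G and C. RefSeq listed promoters for 20 of the 25 leading genes, 24 in all, and 32851 promoters for the whole genome. The CCAAT box was in 15 of the 24 (62.5%), against 37.4% of all promoters, and the GC box in 17 (70.8%), against 35.7%. The TATA box was in 6 (25.0%), against 13.6%, the cell cycle homology region in 1 (4.17%), against 17.9%, and the cyclic AMP response element in 0, against 1.79%. The leading genes had to reach a minimum level, while the promoters of the whole genome were taken without one. The 2 sets are thus not alike in expression, and a share among genes of like level was not computed. These matches describe the windows and identify no bound factor.

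Of the 25 genes, 7 are gene models without a given name. The first 2 of the ranking are of this kind and are named here after their values were seen. Gm10827, a long noncoding RNA on chr10:18235053-18246019 (plus strand), had 1070 CPM in the lowest, 1519 in the median and 2020 in the highest library of cluster 11, against 16.5, 40.6 and 103 CPM in other cells. It was detected in 408 of the 539 cells (75.7%), against 9.39% of other cells, and cluster 11 held 16.5% of all its UMIs in the series although it held 0.530% of the cells. C730034F03Rik, on chr15:89429589-89430868 (plus strand), had 243, 689 and 787 CPM in cluster 11, against 7.34, 11.9 and 20.7 CPM in other cells. It was detected in 40.6% of the cells of cluster 11 and 3.20% of other cells. No library of cluster 11 fell into the range of the other cells for either gene. Both were chosen as highest in cluster 11 from these same cells, so this gap follows in part from that choice.

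Olfr655 had 142 CPM in the lowest, 304 in the median and 770 in the highest library of cluster 11, against 4.94, 11.4 and 21.8 CPM in other cells. Gfod2 had 166, 213 and 355 CPM in cluster 11, against 6.52, 9.0 and 12.9 CPM in other cells. Yae1d1 had 143, 274 and 328 CPM in cluster 11, against 10.8, 12.8 and 18.7 CPM in other cells. None of these ranges overlapped, which follows in part from the choice of the genes as highest in cluster 11. The share of all genes without such overlap was not computed. A detected gene was also counted more often per cell: a positive cell held 4.07 UMIs of Olfr655 on average in cluster 11, against 1.52 in other cells, 4.32 of Gfod2, against 1.29, and 7.38 of Gm10827, against 1.60.

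**Figure D1:**
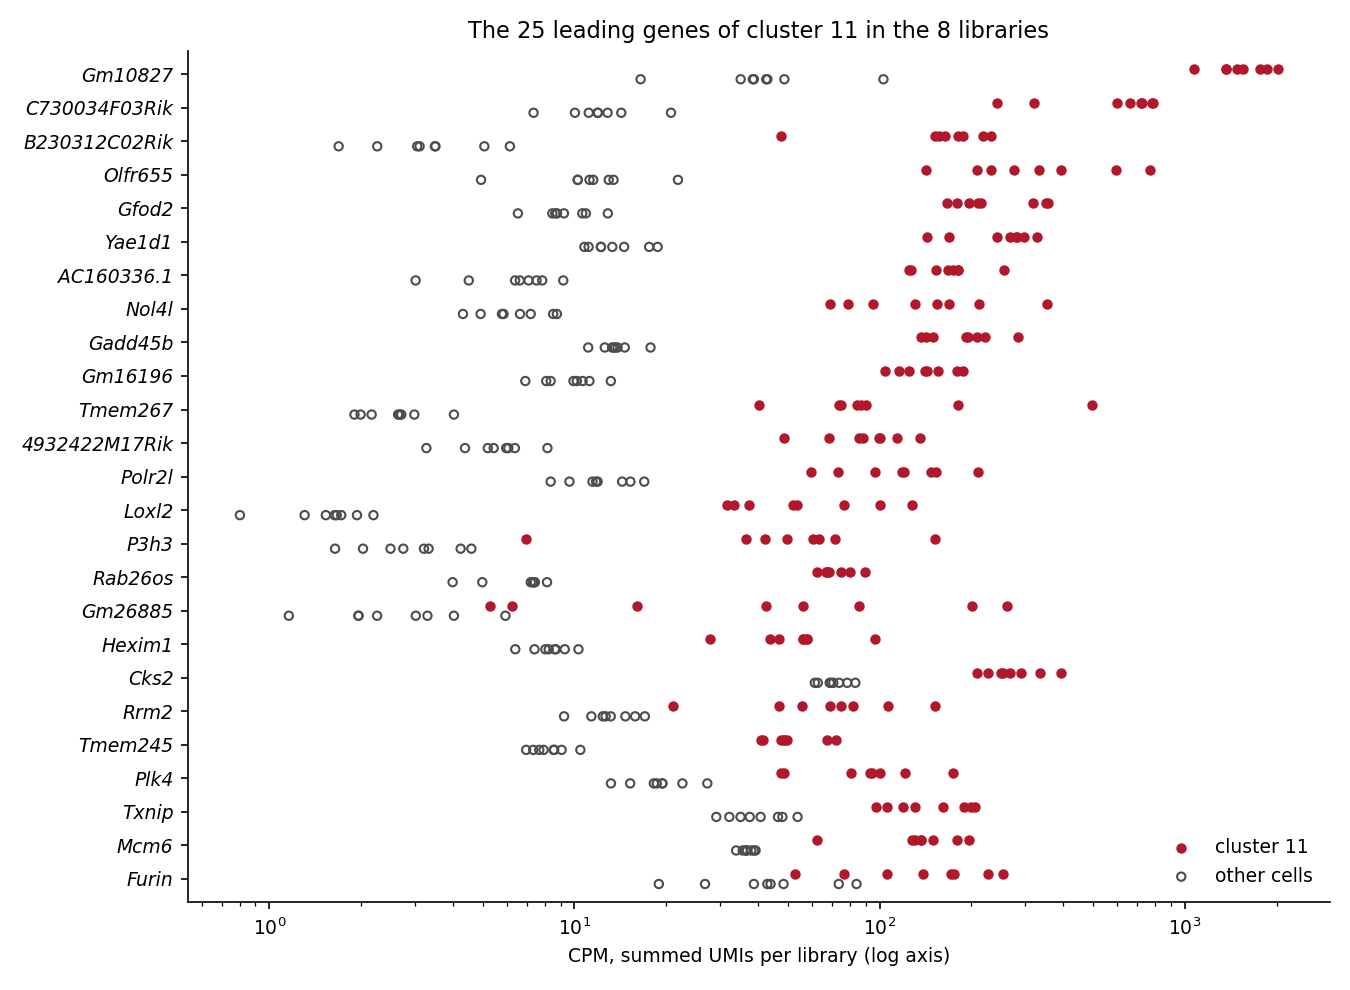
Level of each of the 25 leading genes (rows, highest median log2 ratio at the top) in CPM on a log axis, 1 point per library, with cluster 11 as filled red points and the other cells of the library as open grey points. Gm10827 lies at 1070 to 2020 CPM in cluster 11, against 16.5 to 103 CPM in other cells, while the ranges of Furin and Gm26885 overlap.

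The next named genes described had different roles. Gadd45b, a stress-induced gene of the GADD45 class, had 137, 193 and 285 CPM (lowest, median and highest library) in cluster 11, against 11.1, 13.5 and 17.7 CPM in other cells. Polr2l, a subunit of RNA polymerase II, had 59.6, 119.5 and 209.6 CPM in cluster 11, against 8.35, 11.8 and 16.9 CPM in other cells. Hexim1, an inhibitor of the elongation factor P-TEFb, had 27.7, 56.1 and 96.2 CPM in cluster 11, against 6.40, 8.43 and 10.3 CPM in other cells. Txnip, which binds thioredoxin, had 97.1, 146 and 206 CPM in cluster 11, against 29.2, 39.1 and 53.8 CPM in other cells. None of these 4 genes overlapped between cluster 11 and other cells, which again follows in part from their choice as leading genes.

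Several leading genes act in DNA replication and cell division. Cks2, a subunit of cyclin-dependent kinases, had 208, 261 and 393 CPM in cluster 11, against 61.3, 69.9 and 83.3 CPM in other cells. Mcm6, a subunit of the replicative helicase, had 62.4, 137 and 196 CPM in cluster 11, against 33.9, 36.7 and 39.2 CPM in other cells. Rrm2, of ribonucleotide reductase, and Plk4, a kinase of centriole duplication, had median log2 ratios of 1.76 and 1.69. Cks2 was detected in 53.2% of the cells of cluster 11 and 18.5% of other cells.

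The remaining named leading genes were Nol4l (median log2 ratio 3.09), Tmem267 (2.92), Loxl2 (2.40), P3h3 (2.25), Rab26os (2.22), Tmem245 (1.73) and Furin (1.62). Loxl2 and P3h3 encode enzymes that modify collagens, and Furin a protease that cleaves precursor proteins. Several rested on few cells. Tmem267 had 301 UMIs in cluster 11, of which 2 cells held 45.8%. When the 5 cells with most UMIs of each gene were left out, a setting chosen after seeing the data, 20 of the 25 genes kept their place, and Furin, Gm26885, Hexim1, P3h3 and Tmem245 dropped out. Rab26os is annotated antisense to its host region, and whether strand was used in the counting was not stated. Whether its counts include reads of the gene on the other strand could therefore not be checked.

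Most members carried several of the leading genes. Of the first 10, a cell of cluster 11 carried a median of 3, and 365 of the 539 cells (67.7%) carried at least 3, against 788 of 101149 other cells (0.779%). The 10 genes were chosen as highest in cluster 11 from these same cells. A gap to other cells follows from that choice, so it describes the cluster and tests nothing. Only 3 cells of cluster 11 carried none of the 10 genes, and no cell carried all 10. The share with at least 3 was 53.7% to 80.6% over the libraries in cluster 11, against 0.489% to 1.28% in other cells. After every cell was thinned to 1500 UMIs, which 489 cells of cluster 11 were deep enough for, the share was 41.3% in cluster 11 and 0.0724% in other cells. Among the other clusters cluster 10 had the highest share, 4.04%, and the highest depth (a median of 7217 UMIs per cell), and after thinning it had 0.0903%. Across the 539 cells, detection of 1 of the 10 genes was hardly correlated with detection of another, since over the 45 pairs the correlation lay between -0.14 and 0.14, with a median of 0.01, cells of all 8 libraries together. These correlations describe cells already grouped by the deposited clusters and were not tested.

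**Figure D2:**
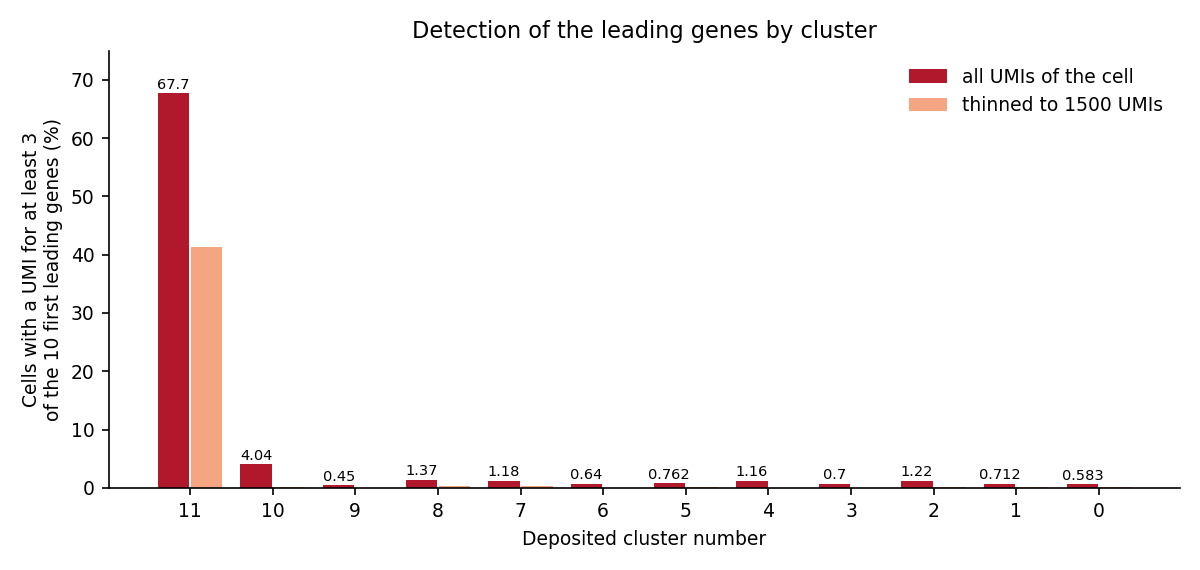
Share of cells (percent) with a UMI for at least 3 of the 10 first leading genes in each deposited cluster, with all UMIs of a cell (dark bars, value printed) and after thinning to 1500 UMIs (light bars). Cluster 11 reaches 67.7% and 41.3% after thinning, and no other cluster exceeds 4.04%. The genes were chosen as highest in cluster 11 from these same cells, so the gap follows from that choice.

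The 15 genes lowest in cluster 11 (among those at 50 CPM or more in other cells) had median log2 ratios from -1.84 to -1.18, a smaller departure than that of the leading genes. Arl6ip1, which shapes the endoplasmic reticulum, had 5.27, 62.0 and 112 CPM (lowest, median and highest library) in cluster 11, against 191, 232 and 261 CPM in other cells. Malat1, a nuclear long noncoding RNA, had 3191, 4253 and 8327 CPM in cluster 11, against 8298, 9602 and 14109 CPM in other cells, so that the highest library of cluster 11 just reached the lowest of the other cells. The group also held Orai1, the pore of the store-operated calcium channel (-1.23), the inhibitory receptor Lag3 (-1.23), the interferon gamma receptor chain Ifngr1 (-1.22) and the interleukin 7 receptor chain Il7r (-1.21), along with Atp6v0d2 (-1.74), H2afx (-1.59), Slfn2 (-1.38), Zcchc7 (-1.36), Tmem71 (-1.35), Tuba1b (-1.25), Frg1 (-1.22), Gatd1 (-1.22) and an unnamed model. Each was lower in all 8 libraries except Il7r, which was lower in 7. Tuba1b has near-identical copies in the genome, so its level depends on how shared reads were counted.

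Cell identity was read from marker lists, counting members at 20 CPM or more over all kept cells. Over all 4359 genes at that level the median log2 ratio was -0.08, and 9.73% were higher and 14.2% lower in cluster 11 in all 8 libraries. Markers of alpha-beta T cells were present but lower: all 13 of 13 reached the minimum, 10 were lower in all 8 libraries and 0 higher, with a median log2 ratio of -0.62. Their summed level was 2893 to 4569 CPM over the libraries in cluster 11, against 5397 to 6769 CPM in other cells. Cd3d, a chain of the T cell receptor complex, had 603, 630 and 833 CPM in cluster 11, against 799, 1019 and 1242 CPM in other cells. Trac, the constant region of the receptor alpha chain, had 227, 304 and 368 CPM in cluster 11, against 243, 292 and 342 CPM in other cells, with overlapping ranges. Cd4 had a mean of 73.9 ± 23.1 CPM in cluster 11 and 107 ± 17.4 CPM in other cells (SD, n = 8 libraries).

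Many markers of other cell types had 0 UMIs in cluster 11 and were also near 0 in other cells. Ms4a1 and Pax5 of B cells, Cd14, Csf1r and Itgam of macrophages and monocytes, Flt3 and Zbtb46 of dendritic cells, Csf3r and Mpo of neutrophils, Kit of mast cells and progenitors, Hbb-bs and Klf1 of erythroid cells, and Col1a1 and Col1a2 of stromal cells had 0 UMIs in cluster 11. In other cells each of them was at 0.831 CPM or less in every library. A count of 0 in the 1882161 UMIs of cluster 11 allows up to 1.59 CPM, for counting error only, so a difference in these genes was not detectable at this depth. Cd8a also had 0 UMIs, against 0.505 to 1.90 CPM in other cells.

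Other members of the same lists had UMIs in cluster 11. Cd74, the invariant chain of MHC class II, was higher in 8 of 8 libraries, by a median log2 ratio of 0.25. It had 9.10, 16.9 and 70.8 CPM (lowest, median and highest library) in cluster 11, against 8.53, 12.5 and 47.1 CPM in other cells. The second KO Th17 library of cluster 11 had 27.7 CPM of Cd79b, of the B cell receptor, 20.8 CPM of Igkc, an immunoglobulin light chain, and 20.8 CPM of H2-Aa, of MHC class II, and the median library of cluster 11 had 0 of each. In other cells these 3 genes reached at most 1.40, 0.873 and 0.921 CPM in any library, while 20.8 CPM stood for 3 UMIs in that library of cluster 11. The B cell and dendritic cell markers at 20 CPM or more over all kept cells went the other way. Xbp1 (median log2 ratio -1.02) and Cst3 (-0.84) were lower in 8 of 8 libraries, H2-Ab1 (-0.42) in 7 and Ighm (-0.37) in 6. The summed level of 13 B and plasma cell markers was 72.8 to 215 CPM over the libraries in cluster 11, against 147 to 193 CPM in other cells. It was 40.1 to 106 CPM for 8 macrophage and monocyte markers, against 98.05 to 127 CPM, 52.7 to 153 CPM for 9 dendritic cell markers, against 136 to 183 CPM, and 3.03 to 28.1 CPM for 5 neutrophil markers, against 7.22 to 17.2 CPM. The part of such cells in the differences was not tested.

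The gamma-delta markers summed to 41.0 to 90.1 CPM in cluster 11, against 49.4 to 85.8 CPM in other cells, and 6 of their 13 measured members were at 0. Trdc, the constant region of the delta chain, had 48.1 CPM in the first KO Th22 library of cluster 11, against 17.5 CPM in other cells of that library, and 0 to 15.2 CPM in the other libraries of cluster 11. It averaged 10.6 ± 16.3 CPM in cluster 11, against 1.60 ± 0.954 CPM in cluster 2 (SD, n = 8 each), and 7.57 to 17.5 CPM in the libraries of other cells, from 21 UMIs in 8 cells of cluster 11.

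Among helper and effector types, no list stood out upwards. Of the 17 Th17 markers, 7 reached the minimum, with a median log2 ratio of -0.11 and 0 higher or lower in all 8 libraries. Their summed level was 188, 323 and 625 CPM (lowest, median and highest library) in cluster 11, against 256, 322 and 370 CPM in other cells. Foxp3, the factor of regulatory T cells, had 0 UMIs, as had Ifng, Il4, Il13 and Il10, which were at 4.13 CPM or less in every library of the other cells. Of the 12 naive and memory markers 7 were lower and 0 higher in all 8 libraries, with a median of -0.61. Of 9 co-inhibitory and co-stimulatory receptors at the minimum 6 were lower, among them Tnfrsf4 (OX40) with 169, 294 and 496 CPM in cluster 11, against 548, 647 and 736 CPM in other cells, and 1 was higher, Cd200.

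The lists of the dividing cell leaned the other way. Of the 11 S phase genes at the minimum, 9 were higher and 0 lower in all 8 libraries, with a median log2 ratio of 0.80. The 25 genes of that list summed to 874 to 1405 CPM in cluster 11, against 456 to 620 CPM in other cells. Pcna, the sliding clamp of replication, had 53.6, 90.2 and 112 CPM in cluster 11, against 32.4, 35.7 and 39.1 CPM in other cells. Of 18 G2/M genes, 9 were higher and 2 lower, with a median of 0.72, and the list summed to 1969 to 3416 CPM, against 1133 to 1797 CPM. Hmgb2 had 811, 1093 and 1480 CPM in cluster 11, against 297, 382 and 436 CPM in other cells. The deposited S and G2/M scores, whose method was not stated, also had higher medians in cluster 11 than in other cells in all 8 libraries. Other clusters were higher still: the median S score was 0.043 in cluster 11 and 0.085 in cluster 10, and the median G2/M score was -0.077 in cluster 11, 0.086 in cluster 3 and 0.569 in cluster 10. The list was not uniform, since Top2a, a topoisomerase of dividing cells, had 79.0, 135 and 154 CPM in cluster 11, against 125, 188 and 232 CPM in other cells, and was lower in each of the 8 libraries. Of the 8 histone genes at the minimum, 3 were higher in all libraries and H2afx was lower, and several of them have near-identical copies.

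Lists of growth, protein folding, activation and lipid synthesis gave the following counts. Of 16 ribosome biogenesis and Myc genes 8 were higher and 0 lower in all 8 libraries (median 0.38), among them Ran, the nuclear transport GTPase, with 663, 834 and 1107 CPM in cluster 11, against 365, 422 and 480 CPM in other cells. Of 7 heat shock genes 4 were higher and 1 lower (median 0.34). Hsp90ab1, a cytosolic chaperone, had 3117, 3608 and 4339 CPM in cluster 11, against 1809, 2059 and 2301 CPM in other cells. Of 14 ER stress genes 3 were higher and 1 lower (0.28), of 13 immediate early genes 4 were higher and 1 lower (0.29), and of 15 sterol and fatty acid genes 2 were higher and 1 lower (0.13), a share of higher members near that of all genes. Junb, an AP-1 factor, had 449, 630 and 748 CPM in cluster 11, against 304, 370 and 403 CPM in other cells. Srebf2, the regulator of sterol synthesis, had 84.3, 162 and 241 CPM in cluster 11, against 46.7, 58.5 and 63.2 CPM in other cells.

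In several lists members were lower and none higher. The members lower in all 8 libraries numbered 4 of 6 in the cytotoxic list (median -0.79), 3 of 6 in the interferon response (-0.62), 7 of 13 mitochondrially encoded genes (-0.30), 6 of 23 glycolysis and hypoxia genes (-0.34) and 3 of 6 nuclear-retained transcripts (-0.77), with 0 higher in each. STAT3 and cytokine receptors had 0 higher and 2 lower of 13 (-0.44), near the share of all genes. The amino acid response had 2 higher and 0 lower of 15 (0.06), and metallothionein and stress 2 and 0 of 6 (0.05). The p53 and apoptosis list had 2 higher and 2 lower of 11 (-0.34), and integrins, S100 and migration 1 and 4 of 16 (-0.17). Over all genes at the minimum 9.73% were higher and 14.2% lower in all 8 libraries, and such small counts are not read as departures from that. Effector cytokines (-0.27, 0 and 3 of 8), aryl hydrocarbon receptor targets (0.29, 0 and 0 of 3), MHC class II genes (-0.51, 0 and 1 of 2) and proton-sensing receptors (-0.38, 0 and 0 of 3) had few measured members. The lower mitochondrial share and the lower Malat1 moved with the cluster as given above, and their part in these differences was not tested.

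**Figure D3:**
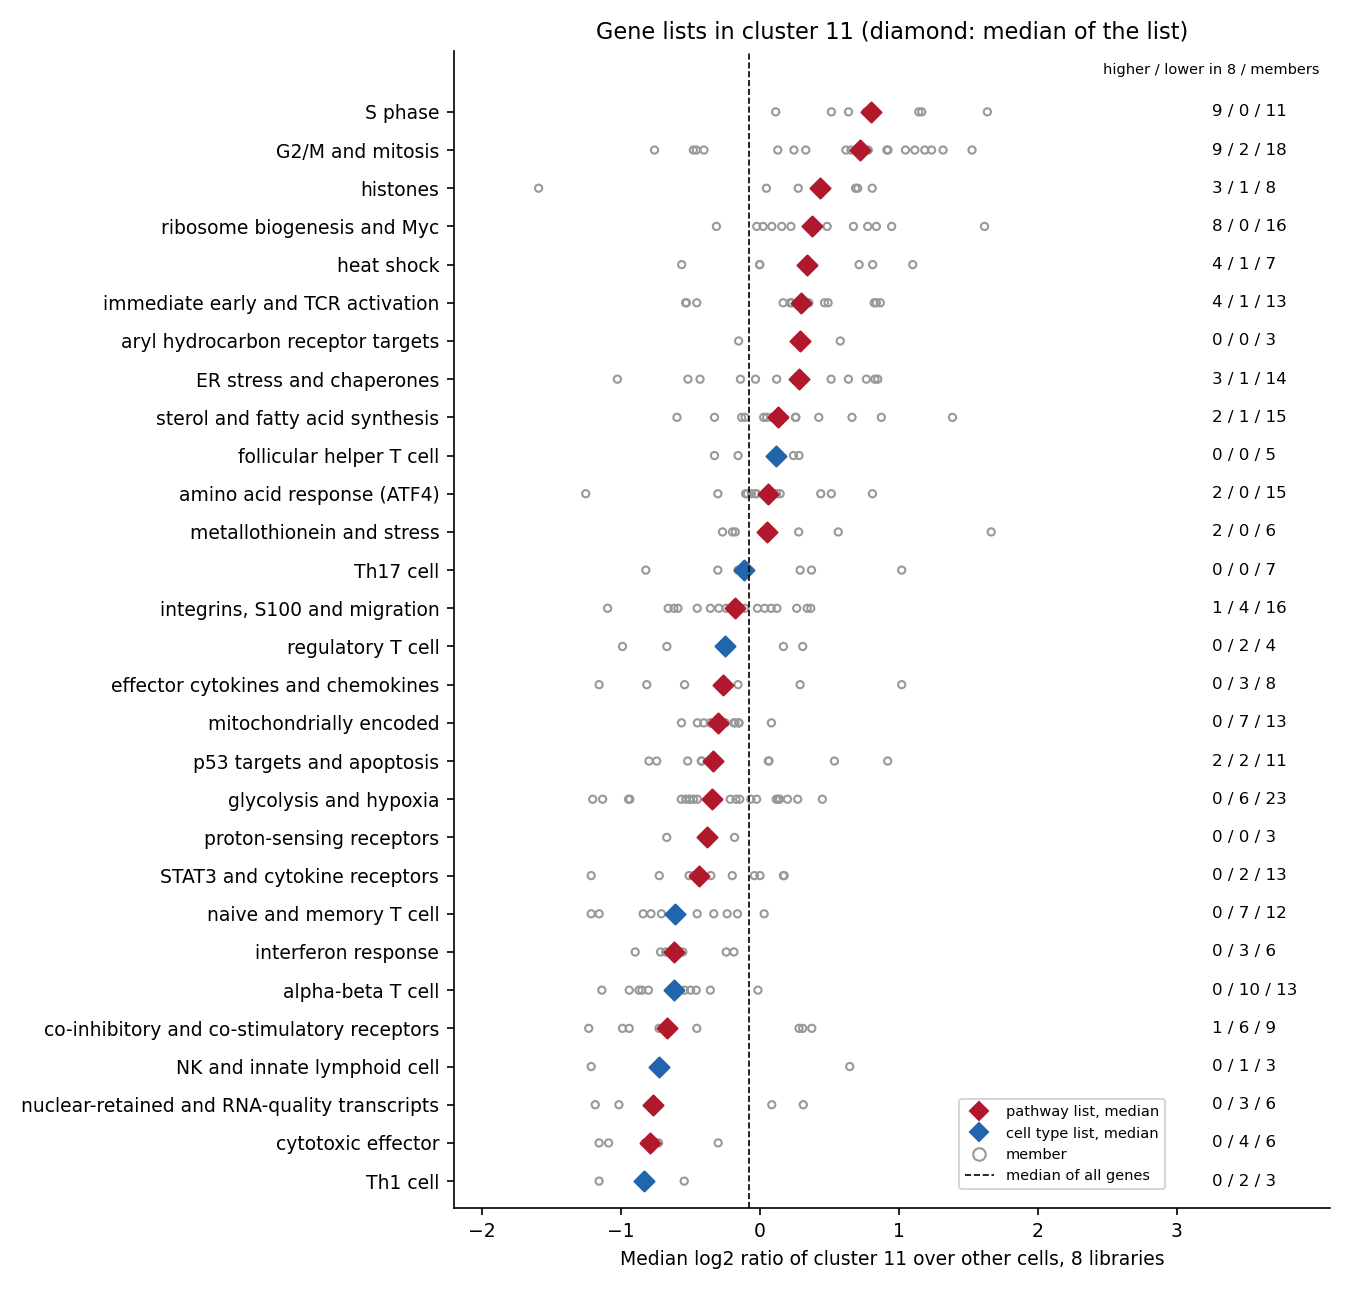
Median log2 ratio of cluster 11 over other cells for the lists with at least 3 members at 20 CPM or more, with grey circles for the members, red diamonds for pathway lists, blue diamonds for cell type lists and a dashed line at the median of all genes (-0.08). The numbers on the right count the members higher in all 8 libraries, lower in all 8 libraries, and measured; the S phase list lies highest (9, 0 and 11) and the alpha-beta T cell list has 10 of 13 lower.

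Il17f and Il17a, the transcripts that the cluster was noted for, were set beside cluster 2, the cluster with most of them, without a test. In cluster 11 Il17f had 29.8 and 6.93 CPM in the KO Th17 libraries, 20.0 and 42.2 in the KO Th22 libraries, 60.3 and 170 in the WT Th17 libraries and 49.9 and 120 in the WT Th22 libraries. In cluster 2 the same libraries had 67.9 and 122, 62.7 and 110, 298 and 235, and 165 and 155 CPM. Cluster 11 was lower in 8 of 8 libraries, with a median log2 ratio of -1.24 and a range from -2.96 to -0.35.

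Il17a in cluster 11 had 0 and 13.9 CPM in the KO Th17 libraries, 16.04 and 0 in the KO Th22 libraries, 33.5 and 118 in the WT Th17 libraries and 12.5 and 15.3 in the WT Th22 libraries. Cluster 2 had 106 and 129, 49.6 and 52.8, 244 and 239, and 116 and 94.5 CPM. Cluster 11 was again lower in 8 of 8 libraries, with a median log2 ratio of -2.51 and a range from -3.54 to -0.96. These levels rested on 58 UMIs of Il17a and 142 of Il17f in all of cluster 11, of which the second WT Th17 library held 39 and 56.

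By mean CPM over the libraries cluster 11 stood second of the 12 clusters for both genes. Il17f averaged 62.4 ± 55.3 CPM in cluster 11 and 152 ± 81.1 CPM in cluster 2, and the next was cluster 9 with 16.8 ± 19.1 CPM (SD, n = 8). Il17a averaged 26.2 ± 38.7 CPM in cluster 11 and 129 ± 75.1 CPM in cluster 2, and the next was cluster 8 with 8.80 ± 7.91 CPM. The SD of cluster 11 was close to or above its mean, and it spans both genotypes. Il17f averaged 24.7 CPM in KO and 100 CPM in WT libraries of cluster 11, and 15.6 and 18.0 CPM in cluster 9. For Il17a these means were 7.48 and 44.9 CPM in cluster 11, and 7.37 and 10.2 CPM in cluster 8. The clusters were not compared within libraries, so these means do not settle the place against the third cluster. Against all other cells together, cluster 2 included, Il17f was higher in 7 of 8 libraries (median log2 ratio 1.02), and Il17a was higher in 3 (-0.15).

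The share of cells with a UMI gave the same order. Il17f was detected in 52 of 539 cells of cluster 11 (9.65%, exact 95% interval 7.29% to 12.5%), against 23.6% (22.8% to 24.5%) of the 9869 cells of cluster 2. After thinning to 1500 UMIs the shares were 5.93% and 14.3%, and the other 10 clusters had 0.407% to 1.35%. Il17a was detected in 17 cells of cluster 11 (3.15%, 1.85% to 5.002%), against 10.8% (10.2% to 11.4%) in cluster 2, and after thinning in 2.25%, against 7.19% in cluster 2 and 0.108% to 0.826% in the other 10. The intervals cover counting error over cells only. In cluster 11 8 cells carried both transcripts, 44 Il17f alone and 9 Il17a alone. The 61 cells with either had a median of 4468 UMIs, against 2936 in the 478 cells with neither, and both sets carried a median of 3 of the 10 first leading genes.

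**Figure D4:**
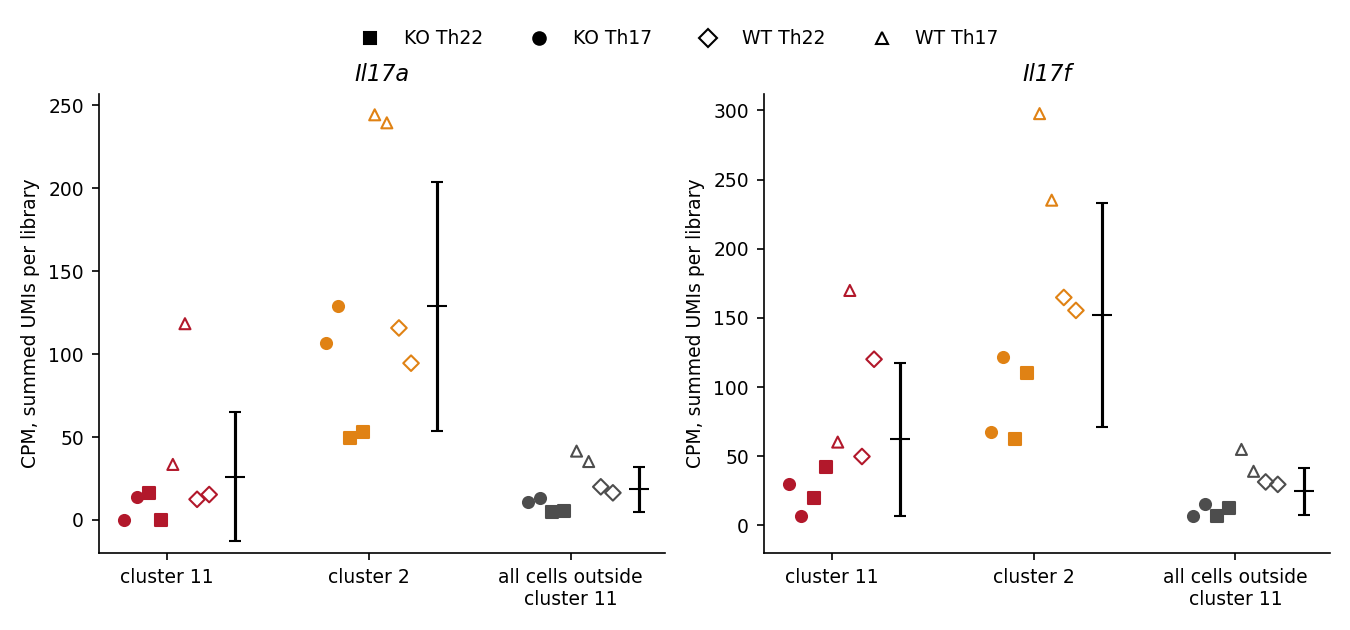
Il17a (left) and Il17f (right) in CPM for each library in cluster 11 (red), cluster 2 (orange) and all cells outside cluster 11 (grey), with filled symbols for KO and open symbols for WT libraries, and mean ± SD over the 8 libraries in black. Cluster 11 lies below cluster 2 in each library, and the second WT Th17 library of cluster 11 is highest, at 118 CPM for Il17a and 170 CPM for Il17f.

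Il22 in cluster 11 rested on 100 UMIs in 28 cells, of which 1 cell held 32. Its libraries had 40.1 and 232 CPM in KO Th22, 37.4 and 79.3 in WT Th22, 14.9 and 6.93 in KO Th17, and 0 and 12.1 in WT Th17, so that each Th22 library lay above each Th17 library. How common such an order was among all genes was not computed. Beyond Il17a, the genes lowest in cluster 11 relative to cluster 2 were Ifitm1 (median log2 ratio -2.93), Lum (-2.40), Il24 (-2.13), Ifitm3 (-2.03), Inhba (-1.996), Ccdc71l (-1.93), Ebf1 (-1.82), Atp6v0d2 (-1.71) and an unnamed model, each lower in 8 of 8 libraries. Il24, a cytokine related to IL-10, averaged 9.33 ± 9.66 CPM in cluster 11 and 102 ± 82.4 CPM in cluster 2. Lum, which encodes the proteoglycan lumican, averaged 30.2 ± 11.2 CPM in cluster 11 and 173 ± 24.4 CPM in cluster 2. The 10 genes highest relative to cluster 2 were all among the leading genes given above.

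The share of cells in cluster 11 did not separate the groups of the study. It was 0.616% and 0.341% of the library in KO Th22, 0.311% and 0.819% in WT Th22, 0.715% and 0.384% in KO Th17, and 0.448% and 0.752% in WT Th17. The share averaged 0.514 ± 0.181% in KO and 0.583 ± 0.243% in WT libraries (SD, n = 4 each), a difference of -0.069 percentage points (exact two-sided permutation test within polarization, p = 0.611, adjusted p = 0.667 over the 2 comparisons). It averaged 0.522 ± 0.241% in Th22 and 0.575 ± 0.186% in Th17 libraries (n = 4 each), a difference of -0.053 percentage points (exact permutation test within genotype, p = 0.667, adjusted p = 0.667). The smallest p that the 36 arrangements allow is 0.0556. The libraries of one group differed by up to 2.64 times, a wider gap than that between the group means. Without WT Th22 replicate 2 the first difference was 0.010. The second was 0.007 without KO Th22 replicate 2, 0.006 without WT Th17 replicate 2 and 0.017 without WT Th22 replicate 1.

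Between KO and WT, 8 of 2931 genes tested in the summed counts of cluster 11 passed a Benjamini-Hochberg adjusted p of 0.05 in edgeR's quasi-likelihood test with polarization as a covariate (0.273%), 2 higher (0.0682%) and 6 lower (0.205%), and 249 had an unadjusted p under 0.05 (8.5%). Gpr65, the deleted gene, fell, with UMI counts of 0 and 0 in the KO Th17 libraries and 2 and 0 in the KO Th22 libraries, against 11 and 21 in the WT Th17 and 3 and 14 in the WT Th22 libraries (adjusted p = 0.012). The 2 UMIs in KO against 49 in WT gave a ratio of levels of 0.049, with a 95% counting interval from 0.0058 to 0.19. In other cells Gpr65 was at 1.25 ± 0.465 CPM in KO and 63.9 ± 11.6 CPM in WT libraries (SD, n = 4 each).

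S100a6, a calcium-binding protein, rose, with 343 and 388 CPM in the KO Th17 and 425 and 495 in the KO Th22 libraries, against 121 and 170 in the WT Th17 and 131 and 146 in the WT Th22 libraries. Every KO library lay above every WT library, and the log2 fold change was 1.49 ± 0.17 (SE; edgeR adjusted p = 1.4e-07). Nupr1, a stress-induced nuclear protein, rose, with 142 and 173 CPM in the KO Th17 and 112 and 158 in the KO Th22 libraries, against 53.6 and 63.7 in the WT Th17 and 43.6 and 5.11 in the WT Th22 libraries (log2 fold change 1.93 ± 0.37, adjusted p = 0.028).

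Ifitm3, an interferon-induced membrane protein, fell, with 14.9 and 13.9 CPM in the KO Th17 and 68.2 and 47.4 in the KO Th22 libraries, against 73.7 and 118 in the WT Th17 and 175 and 189 in the WT Th22 libraries (log2 fold change -1.96 ± 0.28, edgeR adjusted p = 1.7e-05). Within each polarization, and over all libraries, KO lay below WT without overlap. Serpinb1a, a protease inhibitor, averaged 20.8 ± 8.14 CPM in KO and 80.7 ± 36.5 CPM in WT libraries (-1.86 ± 0.39, adjusted p = 0.013), and it has close paralogs that could share reads. Dgat1, the enzyme of the last step of triglyceride synthesis, averaged 15.5 ± 11.6 CPM in KO and 70.1 ± 17.4 CPM in WT (-1.91 ± 0.41, adjusted p = 0.015). Gmfg, a regulator of the actin cytoskeleton, averaged 261 ± 51.4 CPM in KO and 431 ± 62.3 CPM in WT (-0.70 ± 0.16, adjusted p = 0.028), without overlap. Ecm1, an extracellular matrix protein, passed at an adjusted p of 0.045 (-1.56 ± 0.37), with KO and WT libraries that overlapped.

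**Figure D5:**
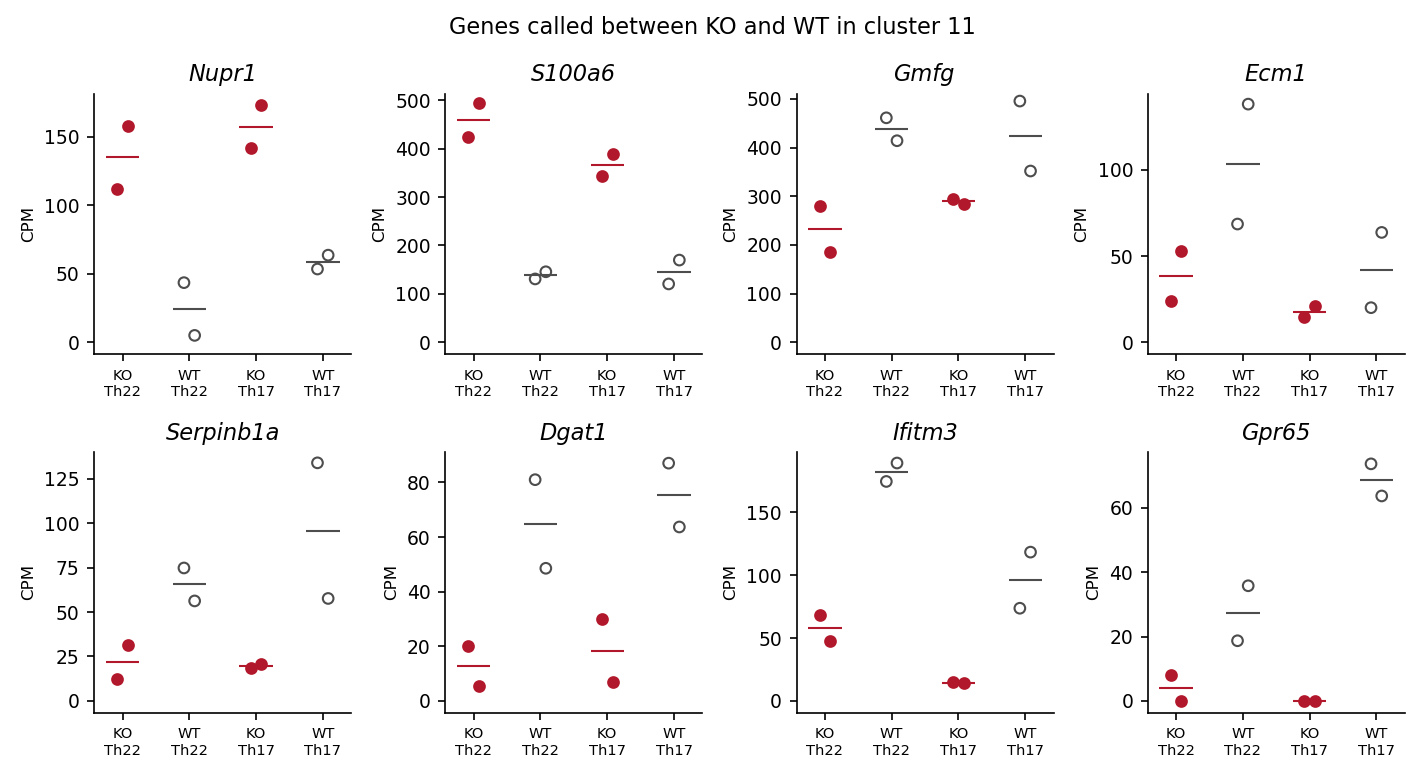
Level in CPM, in cluster 11, of the 8 genes that differed between KO and WT, with 1 point per library (KO filled red, WT open grey) and a line at the mean of the 2 libraries. KO and WT do not overlap in 7 of the 8 panels and do in that of Ecm1.

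The libraries of the genotypes did not overlap in 143 of the 2931 genes (4.88%), so that pattern alone was common. The count of called genes was unstable: leaving out WT Th17 replicate 2 gave 36, WT Th22 replicate 1 gave 23, KO Th22 replicate 1 gave 15 and KO Th17 replicate 2 gave 14. Calls were lost for Gmfg without KO Th22 replicate 2 (adjusted p = 0.26) or WT Th17 replicate 1 (0.097), for Serpinb1a without WT Th17 replicate 1 (0.057) and for Ecm1 without any of 4 libraries (0.052 to 0.56). DESeq2 called 3 of the 8, S100a6, Ifitm3 and Nupr1, and lost Gpr65 (adjusted p = 0.073), Dgat1, Serpinb1a, Gmfg and Ecm1. Nupr1 was lost after thinning (adjusted p = 0.20). S100a6 and Ifitm3 were called in 15 of 15 alternatives. Il17f, with 24.7 ± 14.9 CPM in KO and 100 ± 55.9 CPM in WT libraries, differed by -2.10 ± 0.45 on the log2 scale without passing (edgeR adjusted p = 0.069), although each WT library lay above each KO library. It passed when any one of 7 libraries was left out, with adjusted p from 1.2e-09 to 0.027. Of the lists, Nupr1 of the amino acid response, S100a6 of the migration list and Gpr65 of the proton-sensing receptors were the only members called.

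For the 8 called genes and Il17f the means of the other cells differed in the same direction. S100a6 averaged 237 ± 68.3 CPM in KO and 128 ± 3.29 CPM in WT libraries outside cluster 11, Nupr1 131 ± 42.6 and 51.9 ± 10.2 CPM, Ifitm3 44.0 ± 24.8 and 165 ± 90.6 CPM, and Il17f 10.4 ± 4.201 and 38.8 ± 11.5 CPM. A fit over 16 sums, cluster 11 and the other cells of each library, tested the genotype effect in cluster 11 minus that in other cells. Of 12312 genes 0 passed (0%) in edgeR, with 381 at an unadjusted p under 0.05 (3.09%), and 0 in DESeq2. The filter on low counts also used the large sums of other cells. It kept genes with 0 UMIs in cluster 11, such as Ifng and Cd8a, whose difference could not be measured. The adjustment thus ran over more genes than the 2931 tested within cluster 11, and 0 calls do not show equal effects. The gene nearest the threshold was a leading one, Olfr655 (-0.96 ± 0.21, edgeR unadjusted p = 4.2e-06, adjusted p = 0.051 over the 12312 genes). It averaged 246 ± 80.3 CPM in KO and 492 ± 244 CPM in WT libraries of cluster 11, with overlap, and 12.5 ± 7.06 and 11.6 ± 1.33 CPM in other cells. It passed without KO Th17 replicate 2 (0.0033), KO Th22 replicate 2 (0.0090), WT Th17 replicate 2 (0.00024) or WT Th22 replicate 1 (0.0026).

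Between Th22 and Th17, 2 of 2931 genes passed in cluster 11 (0.0682%), both higher, and 184 had an unadjusted p under 0.05 (6.28%). Tiparp, a target of the aryl hydrocarbon receptor, had 100 and 68.5 CPM in the KO Th22 and 56.1 and 151 in the WT Th22 libraries, against 33.5 and 20.8 in the KO Th17 and 40.2 and 42.5 in the WT Th17 libraries. Each Th22 library lay above each Th17 library (log2 fold change 1.57 ± 0.31, edgeR adjusted p = 0.021). Cdkn1a, the cell cycle inhibitor p21, had 373 and 437 CPM in the KO Th22 and 467 and 350 in the WT Th22 libraries, against 291 and 305 in the KO Th17 and 188 and 237 in the WT Th17 libraries, again without overlap (0.73 ± 0.16, adjusted p = 0.049). The share of the 2931 genes without overlap between Th22 and Th17 was not computed, so how common that pattern is was not known. In other cells Tiparp had 68.6 and 42.3 CPM in KO Th22, 61.3 and 65.1 in WT Th22, 18.3 and 13.8 in KO Th17, and 23.8 and 22.6 in WT Th17. Cdkn1a there had 165 and 152, 170 and 165, 178 and 171, and 162 and 155 CPM, with overlap. A difference in the culture effect between cluster 11 and other cells was not tested. Tiparp did not pass without WT Th22 replicate 2 (0.32), nor Cdkn1a without KO Th17 replicate 1 (0.060), KO Th22 replicate 2 (0.070) or WT Th17 replicate 1 (0.13). Neither was called by DESeq2, and over all alternatives in which it was tested Tiparp was called in 12 of 14 and Cdkn1a in 6 of 15. Il22 had a log2 fold change of 3.26 ± 0.88 and an adjusted p of 0.48, and it passed without KO Th22 replicate 1, KO Th22 replicate 2 or WT Th22 replicate 1 (8.9e-14 to 0.0050). The count of called genes was between 3 and 29 when 1 library was left out, with 13 without KO Th17 replicate 2, 23 without WT Th17 replicate 2 and 29 without WT Th22 replicate 1. FICZ and the higher IL-6 dose were always given together and cannot be told apart.

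The genotype effect differed between the polarizations for 3 of 2931 genes (0.102%), 2 with a higher effect under Th22 conditions (0.0682%) and 1 with a lower one (0.0341%), while 233 had an unadjusted p under 0.05 (7.95%). Malat1 averaged 3724 ± 129 CPM in KO Th22 and 7073 ± 1774 CPM in WT Th22 libraries, and 4679 ± 433 CPM in KO Th17 and 3662 ± 666 CPM in WT Th17 libraries (SD, n = 2 each; interaction -1.17 ± 0.20 on the log2 scale, edgeR adjusted p = 0.00059). Actg1, a cytoplasmic actin, averaged 2443 ± 137 CPM in KO Th22 and 1993 ± 33.6 CPM in WT Th22 libraries, and 1731 ± 330 CPM in KO Th17 and 2534 ± 50.2 CPM in WT Th17 libraries (0.94 ± 0.20, adjusted p = 0.020). Snhg1, a noncoding host of small nucleolar RNAs, averaged 892 ± 162 CPM in KO Th22 and 595 ± 22.2 CPM in WT Th22 libraries, and 596 ± 48.3 CPM in KO Th17 and 814 ± 110 CPM in WT Th17 libraries (1.14 ± 0.26, adjusted p = 0.031). None of the 3 passed without WT Th22 replicate 1 (adjusted p = 0.055 to 0.075), the library with the highest Malat1 in cluster 11. All 3 were also lost in DESeq2 and in edgeR with replicate number as a block. Actg1 was also lost without KO Th17 replicate 2 (0.20) or WT Th17 replicate 2 (0.072), and Snhg1 without KO Th17 replicate 2 (0.087), KO Th22 replicate 2 (0.23) or WT Th17 replicate 2 (0.32). Over 15 alternatives Malat1 was called in 12, Actg1 in 7 and Snhg1 in 5. Malat1 in other cells also averaged less in KO Th22 (8469 ± 242 CPM) than in WT Th22 libraries (13182 ± 1311 CPM), and 9584 ± 1208 in KO Th17 and 9603 ± 696 CPM in WT Th17 libraries. In the same order Actg1 averaged 2187 ± 103, 1987 ± 10.0, 1910 ± 175 and 2140 ± 156 CPM in other cells. Snhg1 averaged 536 ± 176, 504 ± 58.5, 567 ± 162 and 588 ± 115 CPM there. A difference in the interaction between cluster 11 and other cells was not tested. Malat1 is a nuclear transcript whose level also follows RNA quality, and its part in these differences was not tested.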

How the data were processed

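The authors deposited a matrix of raw UMI counts per gene and cell, and a cell table with the library, a cluster number, the UMI count, the percent of mitochondrial UMIs and S and G2/M scores per cell. Cell Ranger 5.0.1, Seurat and mm10 are named, without roles, per the submitters' processing notes; how the authors clustered, scored and filtered the cells was not stated. The members and gene lists were chosen with earlier results of these data known.

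Cells with at least 500 detected genes were kept. UMI counts were summed per library for cluster 11, cluster 2 and all other cells, and divided by their sum to give CPM. Genes were ranked by the median over 8 libraries of the log2 ratio, with 10 CPM added. For shares of cells, each cell of at least 1500 UMIs (93046 cells) was also thinned to 1500. Leading genes were the 25 highest, lowest genes the 15 lowest, at 50 CPM or more and alike in 7 of 8 libraries, and 10 per direction were taken against cluster 2. Gene models without a given name were counted and named only where singled out after their values were seen. Of 16649 genes, 98.3% matched 1 annotated gene. No per-sample column was left unused for lack of a sample.

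Sums were tested with edgeR 4.0.16 (R 4.3.3; TMM factors, filterByExpr, robust quasi-likelihood F-test, Benjamini-Hochberg threshold 0.05), with DESeq2 1.42.0 as an alternative. KO and WT were compared with polarization as a covariate, Th22 and Th17 with genotype, and another model held their interaction. Values after ± beside a fold change are standard errors. Shares were tested by exact permutation of libraries. On simulated data for KO against WT in cluster 11 (3150 genes), 23.1% of genes changed by a log2 of 1 and 91% of those changed by a log2 of 2 were recovered, with 3 false calls. The simulation gave every gene the same assumed spread, had no polarization effect and changed only genes above a minimum level. Recovery in the real libraries may therefore differ. Library totals ran from 33826527 to 58895019 UMIs. Intervals cover counting error only. Replicate numbers were not used to pair libraries in the main tests.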

Additional observations from a re-analysis of the deposited data

Results flagged for a closer look

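For 3 genes the KO against WT difference in cluster 11 was not the same under Th22 and Th17 conditions, by edgeR's quasi-likelihood test of the interaction. Malat1 had an interaction of -1.17 on the log2 scale, Actg1 of 0.94 and Snhg1 of 1.14. Malat1 was lower in KO than in WT under Th22 conditions in both libraries and higher in KO under Th17 conditions. Actg1 and Snhg1 had the opposite signs. None of the 3 passed when WT Th22 replicate 1 was left out, or with replicate number as a block.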

How the results depend on the processing

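The count of genes called between KO and WT (8) was 3 with DESeq2, 20 without a filter on low counts, 15 without the 8% of cells with most UMIs and 4 after thinning. Between Th22 and Th17 (2) it was 1 with DESeq2, 1 with upper-quartile factors, 10 without a filter, 4 without those cells and 1 after thinning, and the gene called by DESeq2 or after thinning was neither Tiparp nor Cdkn1a. For the interaction (3) it was 0 with DESeq2 and 1 without those cells. For the genotype effect in cluster 11 minus that in other cells (0) it was 1 without a filter and 1 without those cells. With 1 library left out the counts ran from 10 to 36, from 3 to 29, from 0 to 24 and from 0 to 4. The cause was not tested.

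Whether replicate numbers shared by the groups pair the libraries was not stated, and the main tests used no pairing. The correlations of their deviations in cluster 11 lay between -0.099 and 0.086. These came from sums of 47 to 102 cells per library, where counting noise can hide a pairing, so they cannot decide it. With a replicate block 11 genes were called between KO and WT, 3 between Th22 and Th17 and 0 for the interaction, so that Malat1, Actg1 and Snhg1 were lost. Of the 8 and 2 genes called without it, 7 and 1 were shared, and Ecm1 and Cdkn1a were lost. The differences in the share of cluster 11, -0.069 and -0.053 percentage points, do not depend on the block. Their p-values with it were 0.611 and 0.722 (exact permutation test within replicate number).

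The share difference between KO and WT ran from -0.159 to 0.010 with 1 library left out, and that between Th22 and Th17 from -0.152 to 0.017. Both changed sign, at 0.010 without WT Th22 replicate 2 for the first, and for the second at 0.0073 without KO Th22 replicate 2, 0.0062 without WT Th17 replicate 2 and 0.017 without WT Th22 replicate 1. The Il17a and Il17f ratios to cluster 2 kept their direction in each alternative run, from -2.97 to -2.21 and from -1.48 to -1.13. Of the 25 leading genes, 20 to 24 were kept in each. With 47 to 102 cells per library, low genes in cluster 11 rested on few UMIs. In the simulation a change of 1 on the log2 scale was seldom recovered, and recovery in the real libraries may differ.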
